A study of Mus musculus with 13 samples.

Results

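The cytosolic ribosomal protein genes encode the proteins of the ribosome that translates messenger RNA in the cytoplasm. They were taken as every gene whose only symbol begins with Rpl or Rps followed by a digit, together with Rplp0, Rplp1, Rplp2 and Rpsa, leaving out the Rps6k kinases and symbols marked as pseudogenes. This gave 69 of the 22180 genes tested, each with 1 probe set, the one with the highest mean over all arrays. Of the 69, 23 encode proteins of the small (40S) subunit, 35 of the large (60S) subunit, and 11 are paralogs or other symbols that the rule admits, among them Rps19bp1, which is named for binding Rps19 and is no ribosomal protein. For a further 12 ribosomal protein genes (Rpl10, Rpl12, Rpl13a, Rpl23, Rpl24, Rpl31, Rpl35a, Rpl36, Rpl36a, Rps15a, Rps2 and Rps21) the probe sets name other genes as well, so they are not among the 69.

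Expression was measured on 13 Affymetrix whole-transcript arrays of RNA from S1 segments, the first part of the kidney's proximal tubule, of male C57BL/6J mice. Control mice (4 arrays) were given saline. LPS mice (4 arrays) were given lipopolysaccharide of serotype 0111:B4, an endotoxin of Gram-negative bacteria, as 1 intraperitoneal injection of 5 mg/kg, 24 h before sampling. Preconditioned mice (LPS/LPS, 5 arrays) were given 0.25 mg/kg, the challenge of 5 mg/kg followed 24 h later, and the tubules were taken 24 h after it. The samples' treatment labels give the same doses as 5 ug and 100 ug. Whether different arrays stand for different animals is not in the labels, and the p-values below then reflect only sample-to-sample spread, which may be technical. There are 3 comparisons, taken in the order LPS vs control, then LPS/LPS vs control, then LPS/LPS vs LPS, and they share groups, so they are not independent.

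Ribosomal proteins are made in equal numbers in growing cells, and their surplus is degraded. Most of their mRNAs begin with a run of pyrimidines, the 5′ terminal oligopyrimidine (TOP) tract, through which the mTOR kinase and the RNA-binding protein Larp1 set their translation and their stability. The proximal tubule reclaims most of what the glomerulus filters, and LPS is known to depress protein synthesis in it during endotoxemia. The arrays measured RNA, not translation or protein. In tissue samples of this kind, fewer cells of a type and less RNA per cell cannot be told apart.

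The sequences at the start of these genes show where a pyrimidine run is and is not found. RefSeq promoters of the assembly GRCm38.p6 were matched by symbol for 54 of the 69 genes, with 63 annotated starts. A run of at least 8 C or T bases lay between 10 bases before and 20 bases after the start in 34.9% of these promoters, against 11.2% of all 32851 promoters in the table. The windows below are from genes whose values are described further on, except those of Rpl15 and Rpl28. Each is read 5′ to 3′ on the gene's strand, the gene starts at base 11, and the longest pyrimidine run is in capitals where it has at least 6 bases.
Rpl35 (chr2:39005112-39005141, minus strand): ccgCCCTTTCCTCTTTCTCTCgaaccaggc
Rpl15 (chr14:18270967-18270996, minus strand): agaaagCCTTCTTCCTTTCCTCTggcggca
Rpl28 (chr7:4792955-4792984, plus strand): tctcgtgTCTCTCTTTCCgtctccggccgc
Rps18 (chr17:33955646-33955675, minus strand): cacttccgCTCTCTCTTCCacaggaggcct
Rps6 (chr4:86857348-86857377, minus strand): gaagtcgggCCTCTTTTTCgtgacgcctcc
Rpl38 (chr11:114668570-114668599, plus strand): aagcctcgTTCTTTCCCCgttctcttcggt
Rps12 (chr10:23787190-23787219, minus strand): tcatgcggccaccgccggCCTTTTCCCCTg
Rplp0 (chr5:115559457-115559486, plus strand): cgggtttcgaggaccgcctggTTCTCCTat
Rps23 (chr13:90923112-90923141, plus strand): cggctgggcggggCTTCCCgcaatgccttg
Rps25 (chr9:44407704-44407733, plus strand): ccgacatcttagcgaggctgctgtggtcta
Rpl41 (chr10:128549149-128549178, minus strand): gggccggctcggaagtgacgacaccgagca
In Rpl35, Rpl15, Rpl28, Rps18, Rps6 and Rpl38 the run spans or borders the annotated start. In Rps12, Rplp0 and Rps23 it lies downstream of the start. The windows of Rpl41 and Rps25 hold no run of 6, which says only that these letters are not in these windows at these annotated starts.

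The letters CCGGAAG, searched on both strands over 250 bases before to 50 bases after each start, were in 36.5% of the promoters of these genes and in 8.86% of all promoters. The letters AAGATGG were in 11.1% against 6.34%, and CACGTG in 9.52% against 7.15%. Rpl41 and Rpl38 are shown because they had the lowest LPS/LPS vs LPS differences of the 69 genes, and Rplp0 and Rps23 because they had the highest, with the 150 bases before each start and CCGGAAG in capitals.
Rpl41 (chr10:128549169-128549318, minus strand): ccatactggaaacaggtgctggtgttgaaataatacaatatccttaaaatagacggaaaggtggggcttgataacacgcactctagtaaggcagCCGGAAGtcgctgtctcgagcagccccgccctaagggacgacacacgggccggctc
Rpl38 (chr11:114668430-114668579, plus strand): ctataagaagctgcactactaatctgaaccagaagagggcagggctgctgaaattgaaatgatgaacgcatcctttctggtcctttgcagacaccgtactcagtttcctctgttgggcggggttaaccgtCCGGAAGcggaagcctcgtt
Rplp0 (chr5:115559317-115559466, plus strand): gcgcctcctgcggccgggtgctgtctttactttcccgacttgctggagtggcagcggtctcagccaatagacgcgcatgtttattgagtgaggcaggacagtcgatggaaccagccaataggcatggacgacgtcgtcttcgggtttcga
Rps23 (chr13:90922972-90923121, plus strand): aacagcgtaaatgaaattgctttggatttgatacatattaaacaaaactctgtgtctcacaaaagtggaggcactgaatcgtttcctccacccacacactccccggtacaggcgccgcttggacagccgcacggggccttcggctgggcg
In the 150 bases shown, the letters are in the first pair and in neither of the second. The letters were also absent from the 150 bases before the starts of Rpl22 and Rps12, which are not shown. Those genes had LPS/LPS vs LPS differences of -0.70 and -1.03. The genes shown were picked by their differences, so a link to the letters was not tested. Such matches describe the sequence and are not binding sites shown by these data.

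Levels are log2 values per probe set as deposited, and levels of different probe sets are not comparable with each other. With no detection calls, a background reference of 4.77 was used, set at the 95th percentile of 1105 olfactory receptor genes ranked by mean level. Means over all arrays lay above it for 28 of the 69 genes (40.6%) and for 9.95% of all genes. Several standard ribosomal protein genes, such as Rpl5, Rpl11, Rpl34 and Rps7, lay below it, so differences of the other 41 genes may be understated. Ribosomal proteins have many processed pseudogenes, and probe sets can take signal from them or from a paralog. Of the 69 genes, 25 have more than 1 probe set, and all probe sets of a gene gave differences of the same sign for 11, 16 and 12 of the 25 in the 3 comparisons in turn.

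The S1 label was checked against markers. Slc34a1, the phosphate cotransporter of the brush border, had a control level of 11.23, and Slc22a6, an organic anion transporter, 7.34, while the S1 glucose transporter Slc5a2 lay below the reference at 4.50. Of 11 markers of the S1 and S2 segments, 6 had means above the reference. So did 1 of 6 markers of fibroblasts and mural cells and 1 of 3 of lymphocytes, and 0 of 6 of macrophages and monocytes, 0 of 4 of neutrophils, 0 of 5 of endothelium, 0 of 3 of podocytes and 0 of 3 of the S3 segment. Of 6 markers of later nephron segments (loop, distal, collecting duct), only Umod lay above it, but LPS replicate 3 had the highest summed linear level of this list, 655, against at most 182 on any control array, 122 on any other LPS array and 125 on any LPS/LPS array. It was also the highest array in the summed levels of fibroblast and mural markers, 226 against at most 146 on any other array, and of endothelial, macrophage and S3 markers. The same array was the highest of all 13 for 29 of the 69 ribosomal protein genes. Medians, and the genes given array by array, are therefore also given without LPS replicate 3 where that turned their sign or moved them by over 1.5 times. The part of other tubule segments and cell types in them was not tested further.

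Across arrays the ribosomal protein genes were somewhat lower in LPS/LPS than in control, and how LPS stood to control depended on LPS replicate 3. The median level of the 69 genes was 4.54, 4.59, 4.64 and 4.62 on the control arrays, 4.51, 4.41, 5.17 and 4.31 on the LPS arrays, and 4.44, 4.32, 4.30, 4.50 and 4.11 on the LPS/LPS arrays. All LPS/LPS arrays lay below all control arrays, whereas LPS replicate 3 stood above every other array and the other 3 LPS arrays lay below every control array. The mean of this median was 4.60 ± 0.043 (SD, n = 4) in control, 4.60 ± 0.39 (SD, n = 4) in LPS and 4.33 ± 0.15 (SD, n = 5) in LPS/LPS. LPS/LPS replicate 5 was the lowest array for 18 of the 69 genes.

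**Figure D1:**
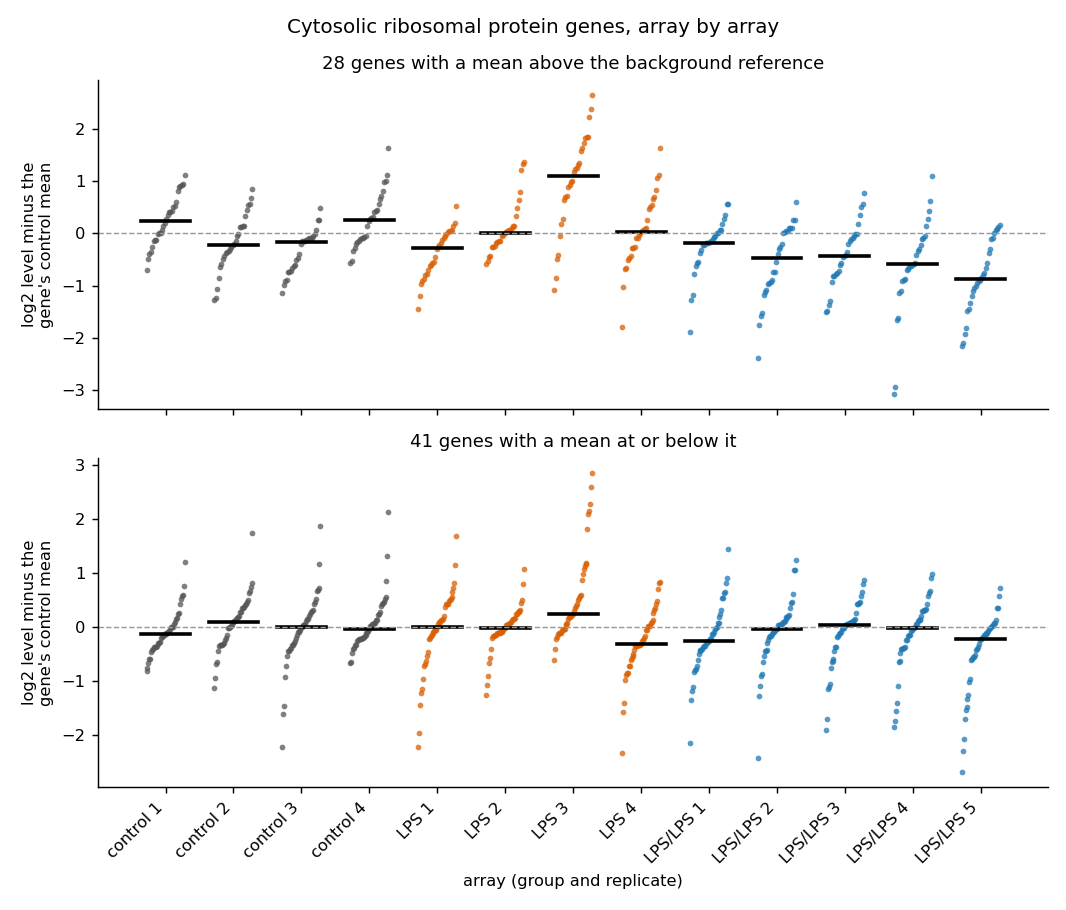
Level of each ribosomal protein gene on each array (log2) minus that gene's mean over the 4 control arrays, for the 28 genes with means above the background reference (top) and the other 41 (bottom); points are genes sorted within an array and black lines are medians. LPS replicate 3 stands above the others, and the medians of the 5 LPS/LPS arrays in the top panel lie below 0.

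A single large LPS dose was set against saline to see what endotoxin alone did to these genes. The 69 genes lay on balance close to their control levels, with differences on both sides. Rps12, Rpl41, Rps25 and Rps26 had the highest positive differences, and Rps18, Rps27l, Rpl6 and Rplp0 the lowest. limma called 0 of the 69 genes at an adjusted p under 0.05, as it called 0% of all genes. At an unadjusted p under 0.05 it had 5 of the 69, against 6.43% of all genes. The median difference was 0.12, with 43 positive, against -0.017 over all genes, of which 47.1% were positive. Without LPS replicate 3, 5 of the 69 had an unadjusted p under 0.05, against 5.8% of all genes. The median was then -0.08 and 27 were positive, so the direction of this median rests on that array. The difference of Rps25, 0.94, was 0.37 without it.

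Rps12, a small subunit protein, had the highest difference. Its levels were 6.09, 5.66, 5.48 and 5.49 in control, 5.64, 7.01, 7.41 and 6.79 in LPS, and 6.04, 5.42, 5.32, 5.96 and 5.69 in LPS/LPS. LPS replicates 2, 3 and 4 stood above all other arrays, and LPS replicate 1 lay among the controls. The LPS vs control difference was 1.03 (SE 0.30, limma adjusted p = 0.547). It was 1.39 (adjusted p = 0.0377) without LPS replicate 1, and 0.80 (adjusted p = 0.776) without LPS replicate 3. The gene has 8 probe sets with differences between 1.03 and 1.31, but 6 of them hold identical values, so they are not 8 measurements.

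Rpl22, a 60S protein that also binds other RNAs, was the only one of the 69 higher in LPS than in control with no overlap between arrays (1.55% of all genes). It lay at 3.55, 3.64, 3.64 and 3.77 in control, 4.08, 3.97, 4.20 and 4.46 in LPS, and 3.35, 3.21, 3.75, 3.64 and 3.44 in LPS/LPS. All of these levels are below the background reference. The differences were 0.53 in LPS vs control (adjusted p = 0.523) and -0.70 in LPS/LPS vs LPS (SE 0.15, adjusted p = 0.111), and its LPS arrays overlapped no array of either other group. Its paralog Rpl22l1 differed by -0.08 in LPS vs control (adjusted p = 0.967).

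Rplp0 and Rps23 were the 2 genes lower in LPS than in control without overlap (1.6% of all genes). Rplp0, the base of the stalk through which the 60S subunit engages elongation factors, lay at 5.08, 4.64, 5.42 and 4.59 in control, 4.32, 4.35, 4.44 and 4.47 in LPS, and 4.86, 5.03, 5.43, 4.71 and 5.05 in LPS/LPS. Rps23, near the decoding centre of the 40S subunit, lay at 4.92, 5.03, 4.83 and 4.87 in control, 4.38, 4.78, 4.50 and 4.25 in LPS, and 5.48, 5.52, 4.91, 4.59 and 5.00 in LPS/LPS. For Rplp0 the LPS arrays were the lowest 4 of the 13, and for Rps23 LPS/LPS replicate 4 fell among them. The LPS vs control differences were -0.54 (adjusted p = 0.677) for Rplp0 and -0.44 (adjusted p = 0.761) for Rps23, and those of LPS/LPS vs LPS were 0.62 for both (adjusted p = 0.340 and 0.352). Without LPS replicate 3 the LPS/LPS vs LPS differences were 0.64 and 0.63. A second, dimmer probe set of Rplp0 differed by -0.40 and 0.13 in the same comparisons.

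Preconditioned and challenged samples were set against saline next. In LPS/LPS more of these genes were lower than higher, and limma called 0 of the 69, with 0.00902% of all genes called. At an unadjusted p under 0.05 it had 9 of the 69, all 9 lower, against 4.7% of all genes in either direction and 2.07% lower. Of the 28 genes above the background reference it had 6, all 6 lower. Of the 2207 genes of the whole table above that reference it had 195, 134 of them lower. The median difference of the 69 was -0.25, with 51 negative, against 0.028 over all genes, of which 44.2% were negative. LPS replicate 3 is in neither group, so the median stays at -0.25 without it. The fit without it gave 14 of the 69 at an unadjusted p under 0.05, against 5.18% of all genes. That fit gave 9 of the 28, all 9 lower, and 236 of the 2207, 166 of them lower.

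The lowest LPS/LPS vs control differences were those of Rps13, Rpl38 and Rpl41. Rps13, a 40S protein, lay at 4.48, 5.66, 1.70 and 3.82 in control, 1.69, 4.41, 6.00 and 1.59 in LPS, and 1.77, 1.50, 2.22, 2.06 and 1.23 in LPS/LPS. Control replicate 3 and 2 LPS arrays were as low as those of LPS/LPS, and the difference of -2.16 had an SE of 0.86 (adjusted p = 0.987). Rpl7a, a 60S protein, was the only one of the 69 lower in LPS/LPS than in control without overlap (0.699% of all genes). It lay between 5.81 and 6.77 in control and between 5.23 and 5.78 in LPS/LPS, a difference of -0.77 (adjusted p = 0.949). Its 3 probe sets had differences from -0.77 to -0.14. The highest positive differences were small, at 0.49 for Rpl5, 0.39 for Rps24 and 0.25 for Rpl3l (adjusted p = 0.987 each). Those of the 3 probe sets of Rps24 ran from 0.006 to 0.39.

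The comparison of LPS/LPS with LPS shows how the same challenge dose left these genes with and without a small first dose. Here the ribosomal protein genes lay lower in LPS/LPS, most of all Rpl41, Rpl38, Rps13, Rps25, Rps26 and Rpl8. The median difference was -0.36, with 52 negative, against 0.049 over all genes, of which 40.7% were negative. limma called 0 of the 69, with 0.0631% of all genes called. At an unadjusted p under 0.05 it had 20 of the 69, against 8.61% of all genes, 17 of them lower, against 4.49%, and 3 higher, against 4.13%. Without LPS replicate 3 the median was -0.17 with 47 negative, and 11 of the 69 had an unadjusted p under 0.05, against 6.17% of all genes, 9 of them lower, against 3.49%. The difference of Rps13, -1.67, was -0.81 without that array. The F-test over the 3 groups called 0 of the 69 and 0.0631% of all genes, with 13 of the 69 and 6.91% of all genes at an unadjusted p under 0.05.

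Rpl41, the smallest protein of the ribosome, had the lowest difference. It lay at 8.28, 6.71, 7.63 and 8.49 in control, 7.98, 8.58, 9.61 and 8.84 in LPS, and 7.15, 6.03, 6.84, 4.85 and 6.83 in LPS/LPS. Every LPS/LPS array lay below every LPS array, while control spanned the gap between them. The difference was 0.97 (SE 0.49, adjusted p = 0.774) in LPS vs control, -1.44 (SE 0.47, adjusted p = 0.987) in LPS/LPS vs control and -2.41 (SE 0.47, adjusted p = 0.0981) in LPS/LPS vs LPS. Without LPS replicate 3 the last was -2.13 (adjusted p = 0.296). With the mean of its probe sets in place of 1 of them it was -2.15, and limma then called it (adjusted p = 0.0071).

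Rpl41 has 5 probe sets, and the one chosen by its mean is not the one that differed most. When all 41345 probe sets were fitted together, an alternative added after the values were seen, limma called 7 in LPS/LPS vs LPS (0.0169%), and 2 of the 7 were Rpl41's. Probe set 17302578 lay at 7.69, 7.17, 7.58 and 8.29 in control, 8.42, 8.99, 9.59 and 8.79 in LPS, and 5.89, 4.28, 5.74, 4.00 and 5.55 in LPS/LPS. Its 3 groups did not overlap: every LPS array was above every control array, and every LPS/LPS array was below. It fell by 3.86 in LPS/LPS vs LPS (SE 0.41, adjusted p = 0.0162).

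Probe set 17296170 lay at 6.31, 5.62, 4.79 and 7.01 in control, 6.73, 7.55, 7.82 and 7.03 in LPS, and 4.29, 3.83, 4.01, 2.32 and 2.95 in LPS/LPS. Here too every LPS/LPS array was below every array of the other groups, although the LPS/LPS levels were under the background reference. It fell by 3.80 (SE 0.48, adjusted p = 0.0247). Leaving out each of the 13 arrays in turn, 17302578 passed in 12 and missed without LPS replicate 2 (adjusted p = 0.0736), and 17296170 passed in 6, with an adjusted p of 0.108 without LPS replicate 3. The differences of both stayed between -4.06 and -3.51. Against control, 17302578 differed by -2.59 (adjusted p = 0.137) and 17296170 by -2.45 (adjusted p = 0.407).

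The other Rpl41 probe sets did not all follow. Probe set 17525073 differed by -1.26 in LPS/LPS vs LPS (adjusted p = 0.456), and the dimmest, 17246209, by 0.58 (adjusted p = 0.806). Which of them read the gene itself and which a processed copy was not tested.

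**Figure D2:**
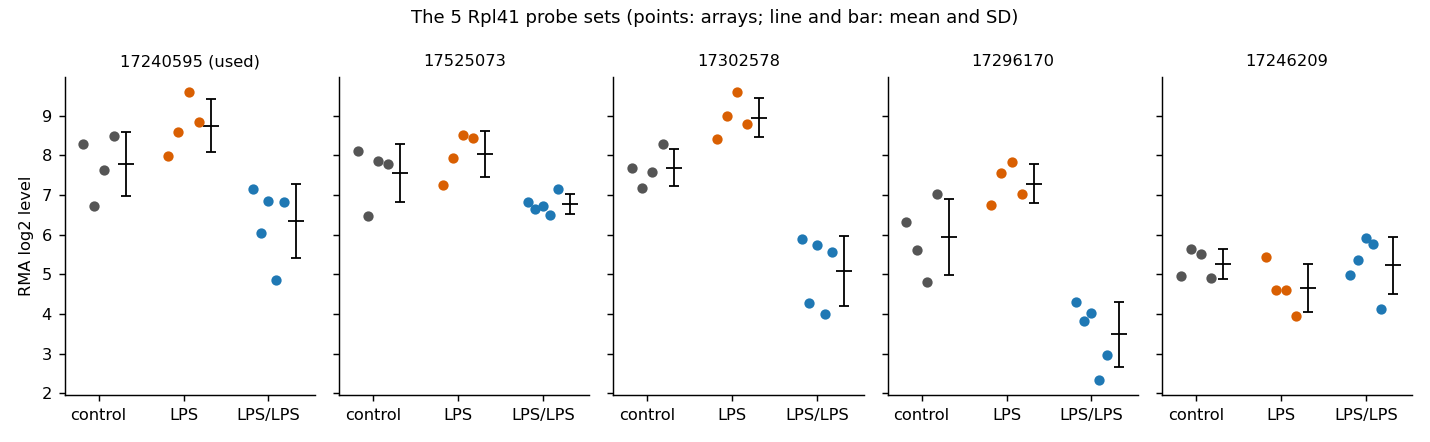
RMA log2 levels of the 5 probe sets of Rpl41 in control (4 arrays), LPS (4) and LPS/LPS (5), with the mean and SD beside each group; levels of different probe sets are not comparable. In 17302578 and 17296170 all 5 LPS/LPS arrays lie below all others, and 17246209 shows no such gap.

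Rpl38, a 60S protein known for the translation of Hox mRNAs in the embryo, came next. It lay at 7.62, 6.15, 6.00 and 7.17 in control, 7.27, 6.88, 7.97 and 6.05 in LPS, and 5.55, 4.36, 5.45, 6.15 and 4.58 in LPS/LPS. Of the LPS/LPS arrays, 4 were below all control and LPS arrays, and replicate 4 lay within their range. The differences were 0.30 in LPS vs control (-0.0045 without LPS replicate 3), -1.52 in LPS/LPS vs control (adjusted p = 0.949) and -1.82 in LPS/LPS vs LPS (SE 0.45, adjusted p = 0.215), the last -1.51 without LPS replicate 3. This gene has 1 probe set.

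Rps25 and Rps26, both 40S proteins, differed in the same directions. Rps25, needed for translation from some internal entry sites, lay at 5.83, 5.28, 5.14 and 6.30 in control, 5.71, 5.98, 8.30 and 6.34 in LPS, and 5.92, 4.71, 4.27, 5.08 and 4.79 in LPS/LPS. Rps26, which lines the mRNA exit channel, lay at 7.15, 7.49, 6.56 and 7.42 in control, 7.21, 7.80, 8.13 and 8.78 in LPS, and 7.73, 7.26, 5.65, 6.25 and 5.68 in LPS/LPS. For Rps25 all LPS/LPS arrays but replicate 1 were below the LPS arrays, and for Rps26 all but replicates 1 and 2. The LPS/LPS vs LPS differences were -1.62 (adjusted p = 0.331) and -1.47 (adjusted p = 0.339), and without LPS replicate 3 they were -1.05 and -1.41.

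Of the 69 genes, 5 were lower in LPS/LPS than in LPS without overlap (1.3% of all genes), namely Rpl41, Rpl8, Rpl35, Rpl4 and Rpl22, and 1 was higher (1.1% of all genes), Rplp0. Rpl8, Rpl35 and Rpl4 are 60S proteins with differences of -1.43, -1.21 and -1.02 (adjusted p = 0.378, 0.463 and 0.344). Each of these had LPS replicate 3 as its highest array, and without it the differences were -0.90, -0.65 and -0.67. Other probe sets of Rpl35 and Rpl4 did not all follow. The 3 of Rpl35 differed from -1.21 to 0.47, and the 2 of Rpl4 by -1.02 and 0.0003. Rpl11, which with Rpl5 and the 5S RNA restrains Mdm2, had a positive difference of 0.52 (adjusted p = 0.558), and Rpl5 one of 0.10 (adjusted p = 0.956).

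**Figure D3:**
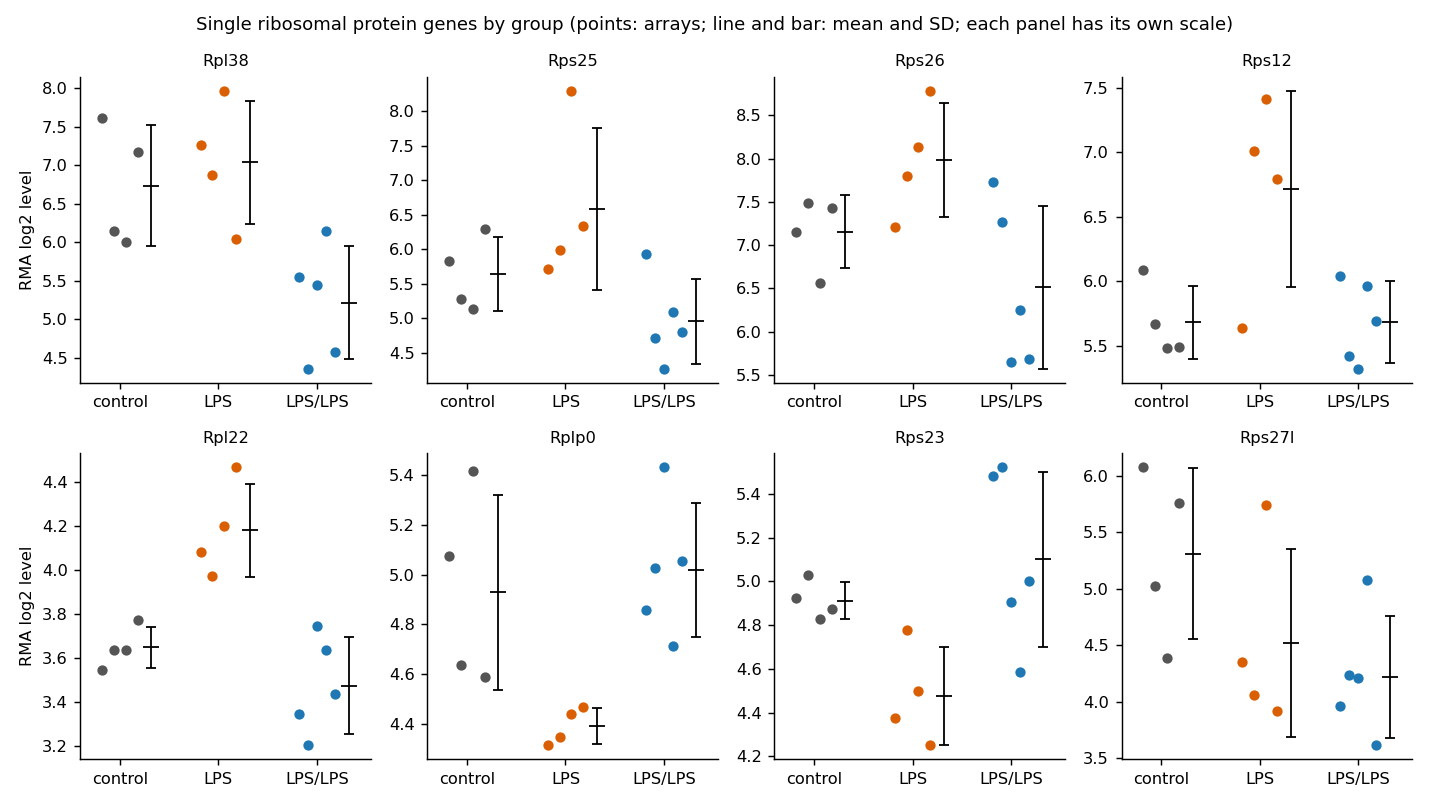
RMA log2 levels of 8 ribosomal protein genes in control (4 arrays), LPS (4) and LPS/LPS (5), with the mean and SD beside each group and a separate scale in each panel. Rplp0 has its 4 LPS arrays below all others, Rpl22 has its 4 LPS arrays above all others, and Rpl38, Rps25 and Rps26 have most LPS/LPS arrays low.

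Both subunits of the ribosome were described by their medians. The 23 genes of the 40S subunit had median differences of 0.07, -0.31 and -0.44 in the 3 comparisons. The 35 genes of the 60S subunit had 0.22, -0.28 and -0.52. The 11 paralogs and other symbols had -0.08, 0.01 and -0.01, and 9 of the 11 lay below the reference. The LPS vs control medians of the 3 classes without LPS replicate 3 were -0.12, -0.055 and -0.13, and those of LPS/LPS vs LPS were -0.26, -0.18 and 0.055. Some of these paralogs are expressed in few tissues, such as the testis for Rpl10l and Rpl39l and striated muscle for Rpl3l. No test was made between these classes.

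The proteins of the stalk differed from each other in sign in LPS/LPS vs LPS. Rplp1 lay at 8.26, 8.50, 8.24 and 8.51 in control, 7.46, 8.12, 9.07 and 8.88 in LPS, and 7.83, 6.80, 7.57, 7.49 and 8.44 in LPS/LPS. Its differences were 0.005 in LPS vs control (-0.23 without LPS replicate 3) and -0.76 in LPS/LPS vs LPS (adjusted p = 0.544), where Rplp0 had 0.62, and 4 of its 5 LPS/LPS arrays were below all controls. Rplp2, which pairs with Rplp1, was below the reference with differences of -0.25 and 0.07, and -0.14 and -0.05 without LPS replicate 3. Without that array Rplp0, Rplp1 and Rplp2 all had negative differences in LPS vs control.

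Among proteins with roles outside the ribosome, Rps6, the substrate of the S6 kinases downstream of mTOR, lay at 5.86, 5.89, 4.98 and 7.75 in control, 5.25, 5.68, 7.76 and 6.37 in LPS, and 4.84, 4.61, 5.68, 4.50 and 6.03 in LPS/LPS. Its LPS/LPS vs LPS difference of -1.14 (adjusted p = 0.598) was -0.64 without LPS replicate 3, and the groups overlapped. Rps3, which also takes part in DNA repair, differed by -0.51 (adjusted p = 0.721, and -0.17 without that array), and Rps19, the gene most often mutated in Diamond-Blackfan anaemia, by -0.13 (adjusted p = 0.926, and 0.16 without it). Rpsa, known also as the laminin receptor, differed by -0.56 (adjusted p = 0.633). Rps27l, a p53 target and paralog of Rps27, lay between 4.39 and 6.07 in control, 3.92 and 5.74 in LPS, and 3.62 and 5.08 in LPS/LPS, with differences from control of -0.79 in LPS and -1.09 in LPS/LPS (adjusted p = 0.777 and 0.987). Rps18, a 40S protein, was the member with the lowest LPS vs control difference, -1.01 (adjusted p = 0.774), from a range of 7.44 to 9.27 in control to one of 6.50 to 8.12 in LPS. Its 3 probe sets differed in sign in that comparison, from -1.01 to 0.22.

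**Figure D4:**
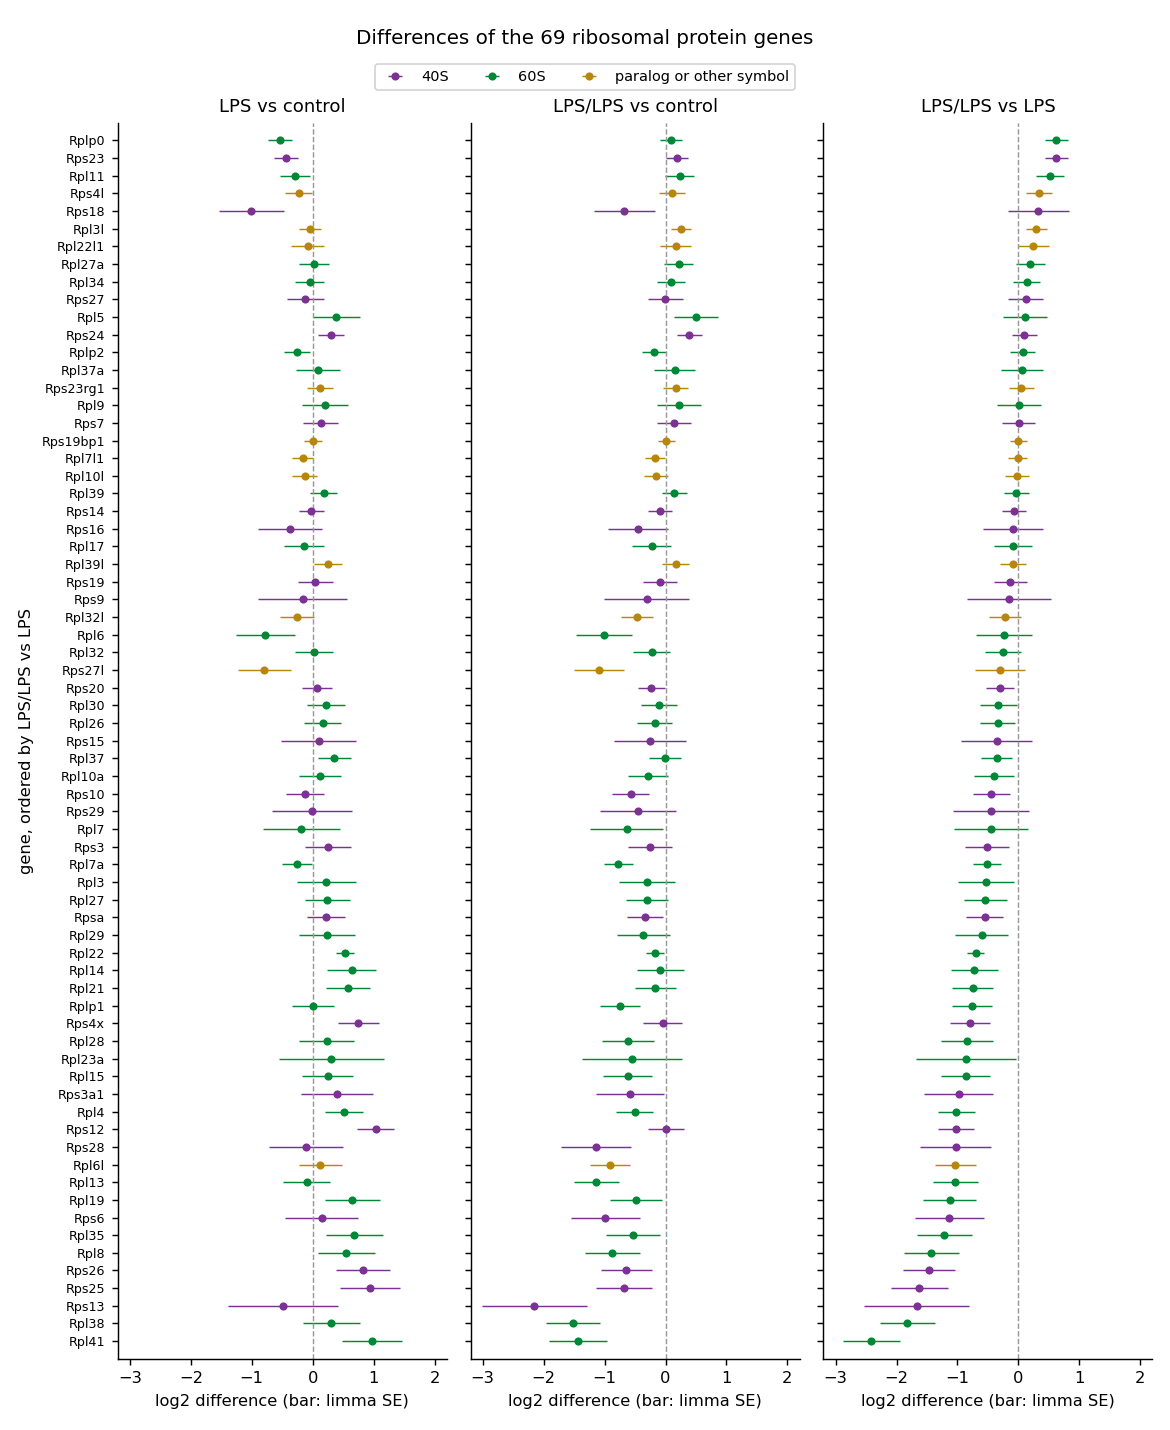
Log2 differences of the 69 ribosomal protein genes in the 3 comparisons, with limma's standard error, ordered by LPS/LPS vs LPS and coloured by subunit class. Most points of the right panel lie left of 0, with Rpl41 at -2.41 the lowest and Rplp0 and Rps23 at 0.62 the highest.

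The 28 genes with means above the reference had median differences of 0.23, -0.52 and -0.80 in the 3 comparisons, and the other 41 had 0.07, -0.16 and -0.09. The LPS vs control median of the 28 without LPS replicate 3 was -0.13, with 10 positive and 18 negative, and their LPS/LPS vs LPS median was -0.50. Those of the other 41 were then -0.05 and -0.05. The 2207 genes of the whole table above the reference had 0.003, -0.007 and 0.015, and without that array 0.002, -0.007 and -0.008. These values describe the genes that a level threshold kept and carry no test. Genes just above the threshold were Rplp0, at a mean of 4.80, and Rps23, at 4.85, and Rpl8, at 4.77, and Rpl26, at 4.71, lay just below it.

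The arrays fall into 7 with a wide and 6 with a narrow spread of values over all probe sets, each class holding arrays of all 3 groups. Within the wide class the median difference of the 69 genes in LPS/LPS vs LPS was -0.66 (2 arrays against 3), and in LPS/LPS vs control -0.33 (2 against 2). Within the narrow class they were -0.07 (3 arrays against 1) and -0.11 (3 against 2). In the narrow class the genes were almost evenly split in LPS/LPS vs LPS, 33 positive and 36 negative, and were 30 and 39 in LPS/LPS vs control, against 16 and 53 and 17 and 52 in the wide class. The medians of the 28 genes above the reference were -0.04 and -0.02 in the narrow class and -1.06 and -0.66 in the wide class. LPS replicate 3 is in the wide class, and without it the LPS/LPS vs LPS medians there were -0.36 for the 69 genes and -0.62 for the 28 (2 arrays against 2). In LPS vs control the medians of the 69 genes were 0.08 in the wide class, -0.10 there without LPS replicate 3, and -0.05 in the narrow class.

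Deviations from group means showed how far these genes vary together from array to array. Over pairs of the 28 genes above the reference the median correlation across the 13 arrays was 0.35, with 78.6% of pairs positive, against 0.021 over pairs of all genes above the reference. Without LPS replicate 3 it was 0.22. Over pairs of all 69 genes the median was 0.14, with 64.4% positive. Over pairs of the 71 mitochondrial ribosomal protein genes it was 0.13, with 63.5% positive. These pairs share arrays and preparation steps, and the values are a description.

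The 22 genes with a run of at least 8 pyrimidines in the window had a median LPS/LPS vs LPS difference of -0.33, and the 32 without one had -0.32. In LPS/LPS vs control the medians were -0.39 and -0.18. For CCGGAAG, the 23 genes with it had medians of -0.36 in LPS/LPS vs LPS and -0.53 in LPS/LPS vs control, and the 31 without it -0.15 and -0.16. In LPS/LPS vs LPS the medians without LPS replicate 3 were -0.26 with a run and -0.085 without one, and -0.17 with CCGGAAG and -0.042 without it. No test was made between these classes.

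Other mRNAs with TOP tracts, mainly of translation factors, were taken from a list of 20, of which 16 were measured. Their median differences were 0.44, -0.19 and -0.54 in the 3 comparisons. In the last, 14 of the 16 were negative, against 40.7% of all genes. The first and last medians without LPS replicate 3 were 0.24 and -0.46, with 12 of the 16 negative in the last. In LPS/LPS vs LPS limma called 1 of the 16, against 0.0631% of all genes, and in the other comparisons 0. The gene called was Naca, a subunit of the complex that receives nascent chains at the ribosome, and it fell. It lay at 5.69, 5.62, 5.37 and 5.32 in control, 6.48, 6.31, 6.63 and 6.14 in LPS, and 5.12, 5.71, 4.51, 4.99 and 4.78 in LPS/LPS. The LPS arrays were above all others. The difference was -1.37 (SE 0.21, adjusted p = 0.0337), and -1.29 (adjusted p = 0.0864) without LPS replicate 3. It passed in 5 of the 13 fits that left out 1 array, with its highest adjusted p of 0.102 without LPS/LPS replicate 4.

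Eef1a1, which brings aminoacyl-tRNA to the ribosome, had the largest difference of this list. It lay at 8.52, 8.04, 7.11 and 6.94 in control, 7.45, 8.11, 9.42 and 8.10 in LPS, and 5.34, 3.96, 6.59, 6.93 and 4.82 in LPS/LPS. Every LPS/LPS array was below every other array, with a difference from LPS of -2.74 (SE 0.57, adjusted p = 0.122), and -2.36 without LPS replicate 3. Eef2, the translocation factor, differed by -2.22 (adjusted p = 0.234, and -1.87 without that array), Eif4b by -0.90 (adjusted p = 0.0916) and Fau, whose product is cleaved to a 40S protein, by -0.92 (adjusted p = 0.452). Tpt1, also a TOP mRNA, had a positive difference of 1.35 (adjusted p = 0.461).

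Genes that build ribosomes or control these mRNAs were taken from 2 further lists. Of 37 ribosome biogenesis genes 34 were measured and 0 called in any of the 3 comparisons, with 3, 0 and 4 at an unadjusted p under 0.05, against 6.43%, 4.7% and 8.61% of all genes, and median differences of 0.12, 0.04 and -0.10. Eif6, which keeps free 60S subunits from joining, differed by 1.18 in LPS vs control (adjusted p = 0.345). Of 16 genes that control ribosomal protein mRNAs 15 were measured and 0 called, with 4, 0 and 4 at an unadjusted p under 0.05 and medians of 0.17, -0.02 and -0.22. These counts without LPS replicate 3 were 3, 0 and 3 for the first list and 1, 0 and 3 for the second, and no test was made between either list and the 69 ribosomal protein genes. In LPS vs control, Mtor differed by 0.83 (adjusted p = 0.411) and Myc by 0.69 (adjusted p = 0.761), and Larp1 by -0.61 in LPS/LPS vs LPS (adjusted p = 0.289). The 71 mitochondrial ribosomal protein genes, which serve the separate ribosome of that organelle, had medians of 0.06, -0.05 and -0.12, and the first and last were -0.01 and -0.008 without LPS replicate 3.

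**Figure D5:**
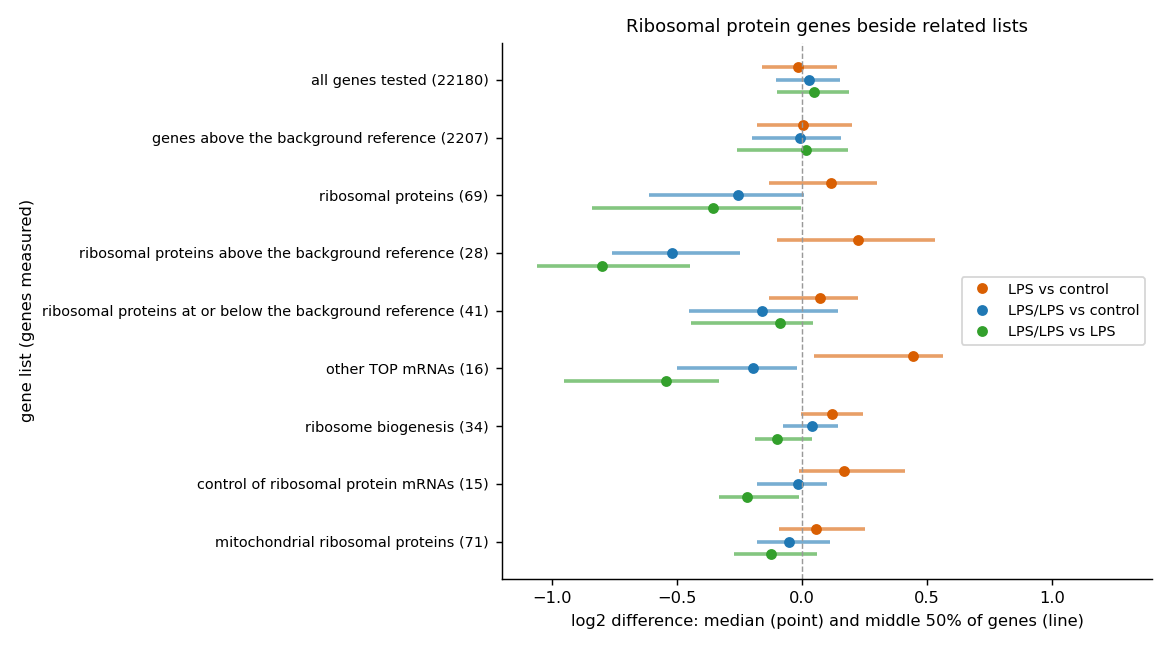
Median log2 difference (point) and the range of the middle 50% of genes (line) in the 3 comparisons, for the ribosomal protein genes and for related lists, with the number of genes measured in brackets. The ribosomal protein genes above the reference and the other TOP mRNAs have LPS/LPS vs LPS medians of -0.80 and -0.54, and all genes tested have 0.049.

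Markers of the S1 and S2 segments differed in the same direction. Of 11 measured, 10 were lower in LPS/LPS than in control and 10 lower than in LPS, with medians of -0.58 and -0.48. Their summed linear level was 2418 to 3456 on the control arrays, 1178 to 3305 on the LPS arrays and 615 to 1619 on the LPS/LPS arrays, and no marker was at 0. LPS replicate 3 alone gave the 3305, and the other LPS arrays were at 1178, 1840 and 1412, so that 2 of those 3 lay within the LPS/LPS range. Without it the LPS/LPS vs LPS median was -0.26, with 9 of 11 lower. The part of this shift in the lower ribosomal protein levels was not tested.

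Probe sets that name a ribosomal protein gene beside other genes give a further look at genes left out above. Some of them name genes already counted above, such as Rpl37a, Rps6 and Rpl5. These 57 probe sets had median differences of 0.03, -0.14 and -0.14, and over all 167 probe sets naming a ribosomal protein gene the medians were 0.08, -0.17 and -0.30. The first and last without LPS replicate 3 were -0.07 and -0.11 for the 57 and -0.05 and -0.14 for the 167. The probe set of Rpl31 and its copy Rpl31-ps12 differed by -3.33 in LPS/LPS vs LPS (adjusted p = 0.485), from a mean of 8.66 to 5.33, and that of Rpl37a and Mir682 by -2.11 (adjusted p = 0.606). Neither passed the test, and other probe sets of both genes did not follow. Another probe set naming Rpl31, beside Tbc1d8 and Rpl31-ps12, differed by 0.16 in LPS/LPS vs LPS (adjusted p = 0.898). The probe set that names Rpl37a alone, used for that gene above, differed by 0.06.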

How the data were processed

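RNA was extracted with PicoPure, and 2 ng was labelled with the Affymetrix WT Pico kit, per the labels' protocols. The authors deposited log2 values per probe set, and per the submitters' processing notes they used RMA (robust multi-array averaging) and Partek 6.6; the background step and the normalization between arrays are not stated there. RMA can leave background signal that compresses dim genes, and the table holds no detection calls. It has 41345 probe sets on 13 arrays (log2 0.376 to 13.8), of which 23521 name 1 gene, 1814 several and 16010 none. The first kind gave 22180 genes.

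All arrays entered 1 limma fit (3.58.1, R 4.3.3; lmFit and eBayes, no covariates), with p-values adjusted by Benjamini-Hochberg over all genes (threshold 0.05); it was tested on simulated data. Genes, lists, the background reference and the spread classes were chosen with earlier results of these data known. Named genes are fixed members plus, per comparison, the 3 highest and 3 lowest differences and the 5 highest and 5 lowest control levels; others were named after their values were seen. The labels state no pairing by replicate number, so the main fit used none. Alternatives varied the arrays, scaling, weights, probe sets and blocks. Values of lists and classes without LPS replicate 3 were added after the data were seen. The number of arrays limits the precision.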

Additional observations from a re-analysis of the deposited data

Results flagged for a closer look

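In 5 of 102 groups of 4 or 5 arrays, 1 array of a ribosomal protein gene lay far from the others of its group; chance flags about 1 in 20 such groups. Rps19 was at 6.88 on LPS replicate 3, where the next highest LPS array was at 5.73, and Rpl27a was at 3.11 on the same array, with the next at 2.43. Rpl5 was at 4.90 on LPS replicate 1, with the next at 3.28. Rpsa was at 2.80 on LPS/LPS replicate 5, with the next lowest at 4.17. Rpl7l1 was at 3.52 on LPS/LPS replicate 4, and the other 4 arrays of that group held the identical value of 3.80. Values shared by at least 2 arrays occur in 24 of the 69 ribosomal protein genes (34.8%) and in 50.6% of all genes.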

How the results depend on the processing

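The median difference of the 69 genes kept its sign in 25 of 26 alternatives in LPS vs control, ranging from -0.08 to 0.18 when 1 array was left out, and turned only without LPS replicate 3. In the comparisons of LPS/LPS with control and with LPS it kept its sign in 26 of 26 alternatives, from -0.32 to -0.15 and from -0.48 to -0.17 with 1 array left out, and over the genes above the reference alone it was -0.52 and -0.80, the second -0.50 without LPS replicate 3. Within the narrow spread class the 69 genes were split 33 positive to 36 negative in LPS/LPS vs LPS, and the median over the genes above the reference was -0.04. Ribosomal protein genes called stayed at 0 under most settings. Leaving out 1 array gave 0 to 1 in LPS vs control (Rps12, without LPS replicate 1) and 0 to 2 in LPS/LPS vs LPS (Rpl41 and Rps12, without LPS replicate 1). Rpl41 was the 1 gene called in LPS/LPS vs LPS over the genes above the reference (adjusted p = 0.0480), with the mean of all probe sets per gene, and with all probe sets fitted together.

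Counts over all genes moved more, and the cause was not tested. In LPS vs control they were 0 as reported, 30 with array weights, 5 after quantile normalization, 6 with arrays scaled to the same median and SD, 3 over the genes above the reference, 7 with trend and robust moderation, and 0 to 24 without 1 array. In LPS/LPS vs control they were 2 as reported, 0 with the 2 groups alone, 4 after quantile normalization, 1 with arrays scaled, 1 with arrays centred, 4 with spread class as a block, and 0 to 3 without 1 array. In LPS/LPS vs LPS they were 14 as reported, 2 with the 2 groups alone, 41 with weights, 9 after quantile normalization, and 5 to 96 without 1 array. The F-test called 14 as reported, 41 with weights, 7 after quantile normalization, and 1 to 39 without 1 array. With the replicate number as a block, counts were 3, 0, 4 and 2 in the same order, and no ribosomal protein gene was called. Deviations of same-numbered arrays correlated from -0.35 to 0.22, and those of other pairs of arrays from -0.33 to 0.54. So few arrays cannot settle whether the numbers pair the samples. Of 740 differences of named genes under other settings, 42, 20 and 36 changed sign in the 3 comparisons, none of them called. Detection above background could not be tested, and changes of dim genes are limited by it.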
